A study of Homo sapiens with 12 samples.

Results

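The 10 genes described here are switched on by the ERK pathway, and most of their products act back on it. They were followed through the loss of focal adhesion kinase (FAK) in pancreatic ductal adenocarcinoma (PDAC) cells, and are DUSP4, DUSP5, DUSP6, SPRY2, SPRY4, SPRED1, SPRED2, ETV4, ETV5 and PHLDA1. They were chosen by name, and every probe that carried 1 of the 10 names was taken. This gave 18 probes of the 47228 on the array, and 16 of them, covering all 10 genes, were detected in at least 2 arrays and were tested.

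The study asked how the loss of FAK affects PDAC cells, and RNA was profiled with HumanHT-12 v4 bead arrays from Illumina. The cells were MIA PaCa-2 and Capan-1, established cell lines from human pancreatic adenocarcinomas. Cells had been stably transduced with a PLKO.1 tet-on vector that expresses a hairpin RNA when doxycycline is added. In each cell line the hairpin was the control shCtrl or 1 of 2 hairpins against FAK, sh1209 and sh1319, the latter written shFAK1319 in the Capan-1 labels. All groups, controls included, received doxycycline at 50 ng/ml for 96 hours and puromycin, at 3.5 µg/ml (MIA PaCa-2) or 1.5 µg/ml (Capan-1). Each of the 6 groups had 2 arrays, with 500 ng of RNA on each. The labels do not say whether the 2 arrays came from separate cultures, so p-values measure the spread between these arrays, which may be technical. In RNA from whole cultures, fewer cells of a type and less RNA per cell cannot be told apart.

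ERK is the last kinase of a chain in which receptors load RAS with GTP, RAS recruits RAF, RAF activates MEK and MEK activates ERK. Active ERK enters the nucleus and raises the transcription of a set of genes within minutes to hours, and many of their products feed back on the chain. DUSP4, DUSP5 and DUSP6 are phosphatases that remove the activating phosphates from ERK. Sprouty proteins (SPRY2, SPRY4) and the related SPREDs (SPRED1, SPRED2) dampen the signal between receptor and RAF, and SPRED1 does so by bringing the RAS inactivator NF1 to the membrane. ETV4 and ETV5 are ETS transcription factors that carry the signal on to further genes. PHLDA1 is a pleckstrin-homology-like protein whose transcript is often read with the others as a sign of ERK output. FAK, the product of PTK2, sits at integrin contacts and can pass signals to this chain through SRC and GRB2.

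Values are log2 intensities after background correction and quantile normalization, and a change is a difference of such values between group means, given with its standard error (SE). An offset of 16 was added in the correction, which understates the change of dim probes. A probe "passed" where limma, fitted across all 24207 tested probes, gave an adjusted p below 0.05. The level of one probe cannot be set against that of another probe. PTK2 was lower with both hairpins in both lines. Probe 450253 read 9.45 and 9.46 with shCtrl, 7.28 and 7.14 with sh1209 and 6.92 and 7.03 with sh1319 in MIA PaCa-2. In Capan-1 it read 10.35 and 10.17, 9.66 and 9.63, and 8.48 and 8.49 in the same order, so PTK2 changed in MIA PaCa-2 by -2.24 ± 0.11 (SE) with sh1209 and -2.48 ± 0.11 (SE) with sh1319 on the log2 scale. The changes in Capan-1 were -0.61 ± 0.11 (SE) and -1.78 ± 0.11 (SE). The second PTK2 probe, 2680750, lay between 4.54 and 6.03 on the 12 arrays and passed with neither hairpin in either line. Capan-1 had all 6 epithelial markers examined. MIA PaCa-2 lacked CDH1 in all of its groups and EPCAM in 2 of its 3 groups, although KRT8 and KRT18 were detected in every group. Of the leukocyte markers, PTPRC and CD3E were each detected on 1 array of 12 and CD68 on all 12. Of the endothelial markers, CDH5 was detected on 0 and VWF on both arrays of Capan-1 with sh1209 (4.91). PECAM1 was detected on both arrays of Capan-1 with sh1209 (mean 5.30) and sh1319 (4.95). It was also detected on 1 array each of Capan-1 with shCtrl, MIA PaCa-2 with shCtrl and MIA PaCa-2 with sh1209. In Capan-1 the fibroblast marker LUM was detected on both arrays with sh1319 (4.86), and DCN on 1 array with shCtrl. COL3A1, a fibroblast collagen, was detected in MIA PaCa-2 with sh1209 (7.75, mean of 2 arrays) and sh1319 (7.47) but not with shCtrl (4.45), while the fibroblast markers DCN and LUM were not detected in that line. KRT19 in MIA PaCa-2 read 6.03 with shCtrl, 4.60 with sh1209 and 4.56 with sh1319 (means). It was detected on 1 of 2 arrays with each FAK hairpin. KRT8 read 10.67, 10.25 and 9.58, and KRT18 read 7.29, 7.00 and 6.50. KRT7 went the other way with sh1319, at 4.44, 4.30 and 4.87, and was detected with sh1319 alone. EPCAM read 4.49, 4.73 and 4.41 and was detected with sh1209 alone. Of the mesenchymal markers, VIM read 13.21, 13.25 and 13.13, and ZEB1 and CDH2 were not detected in MIA PaCa-2. CDH2 read 5.93 with shCtrl, 6.68 with sh1209 and 7.22 with sh1319 in Capan-1 (means), detected on both arrays of each group. VIM read 5.66, 5.86 and 6.13 there and was detected in each group, and ZEB1 was not detected. COL3A1 and the keratins moved beside the changes of the 10 genes in MIA PaCa-2, and CDH2 moved with the FAK hairpins in Capan-1. The part of these markers in the changes of the 10 genes was not tested.

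**Figure D1:**
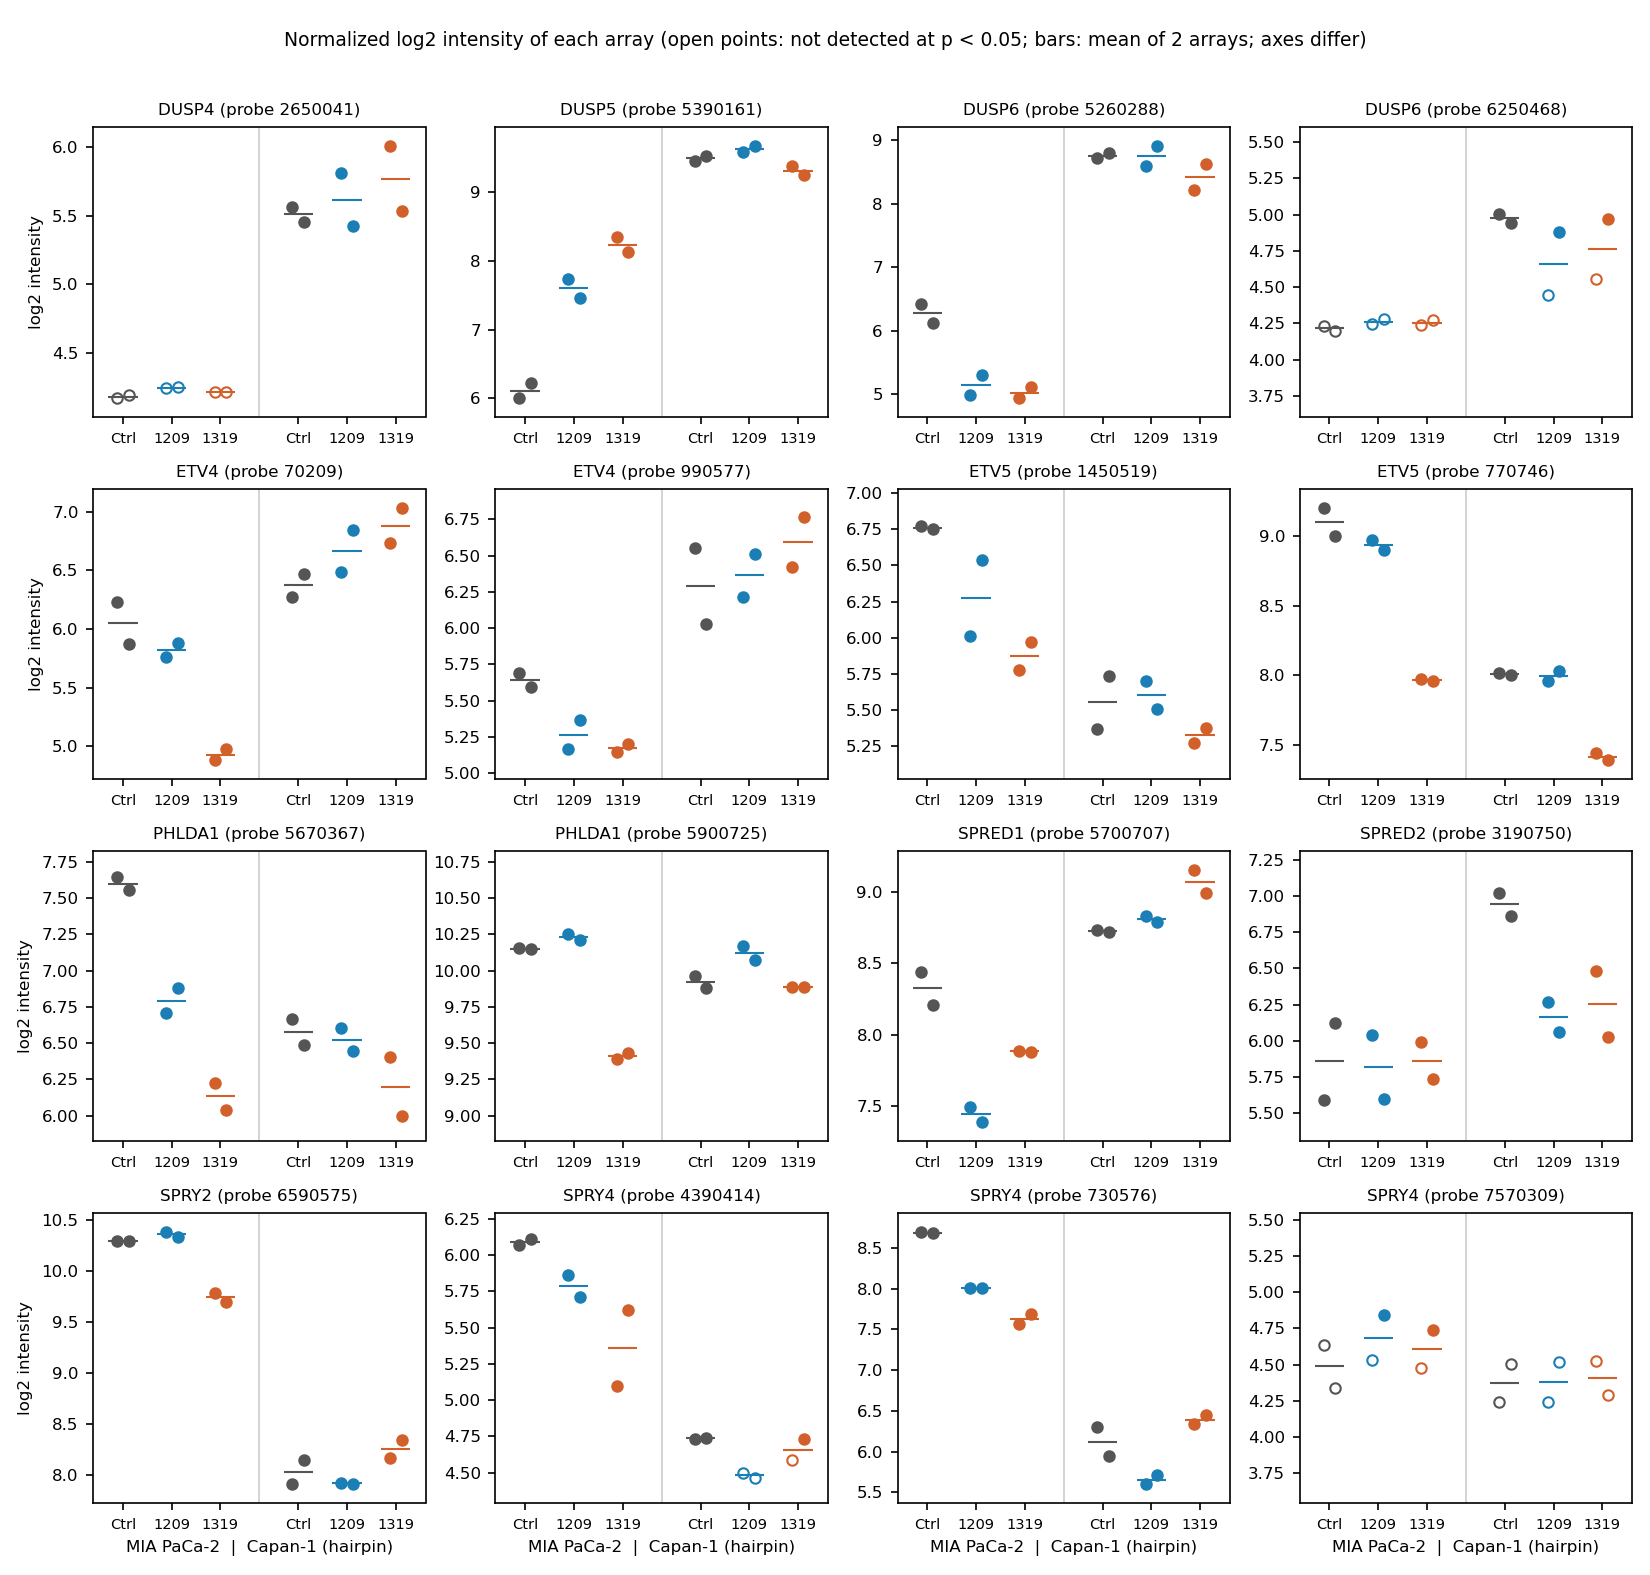
Normalized log2 intensity (vertical axis, different in each panel) of the 16 tested probes of the 10 genes on each of the 12 arrays, by cell line and hairpin. Open points were not detected, bars are means of 2 arrays. DUSP5 climbs from 6.003 and 6.22 to above 8 in MIA PaCa-2 while DUSP6 probe 5260288, SPRY4 probe 730576 and PHLDA1 probe 5670367 step down. For these probes the Capan-1 points lie closer together. In other panels, such as SPRED2, they lie farther apart.

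The 10 genes responded to the FAK hairpins mainly in MIA PaCa-2, and mostly downward. With sh1319, 10 probes of 7 genes fell and the probe of DUSP5 rose, of 16 tested, where 24.3% of all tested probes passed (12.1% lower, 12.2% higher). With sh1209, 4 probes of 4 genes fell and DUSP5 rose, where 18% of all probes passed (8.99% lower, 9.05% higher). The median change of the 16 probes was -0.64 with sh1319 and -0.20 with sh1209, against -0.01 and 0.01 over all tested probes. In Capan-1, 2 probes fell with sh1209, where 16.8% of all probes passed (8.69% lower, 8.14% higher), and 1 fell with sh1319, where 13.7% passed (6.77% lower, 6.95% higher). None rose there at this threshold, and the medians were -0.00053 with sh1209 and -0.06 with sh1319. The comparisons within a line share their shCtrl arrays. The 2 arrays of a hairpin lay wholly to 1 side of the 2 shCtrl arrays in MIA PaCa-2 for 13 of the 16 probes (sh1209) and for 14 (sh1319), where 54.2% and 56.9% of all tested probes did so, and for 8 and 9 in Capan-1, where 55.5% and 53.9% did.

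**Figure D2:**
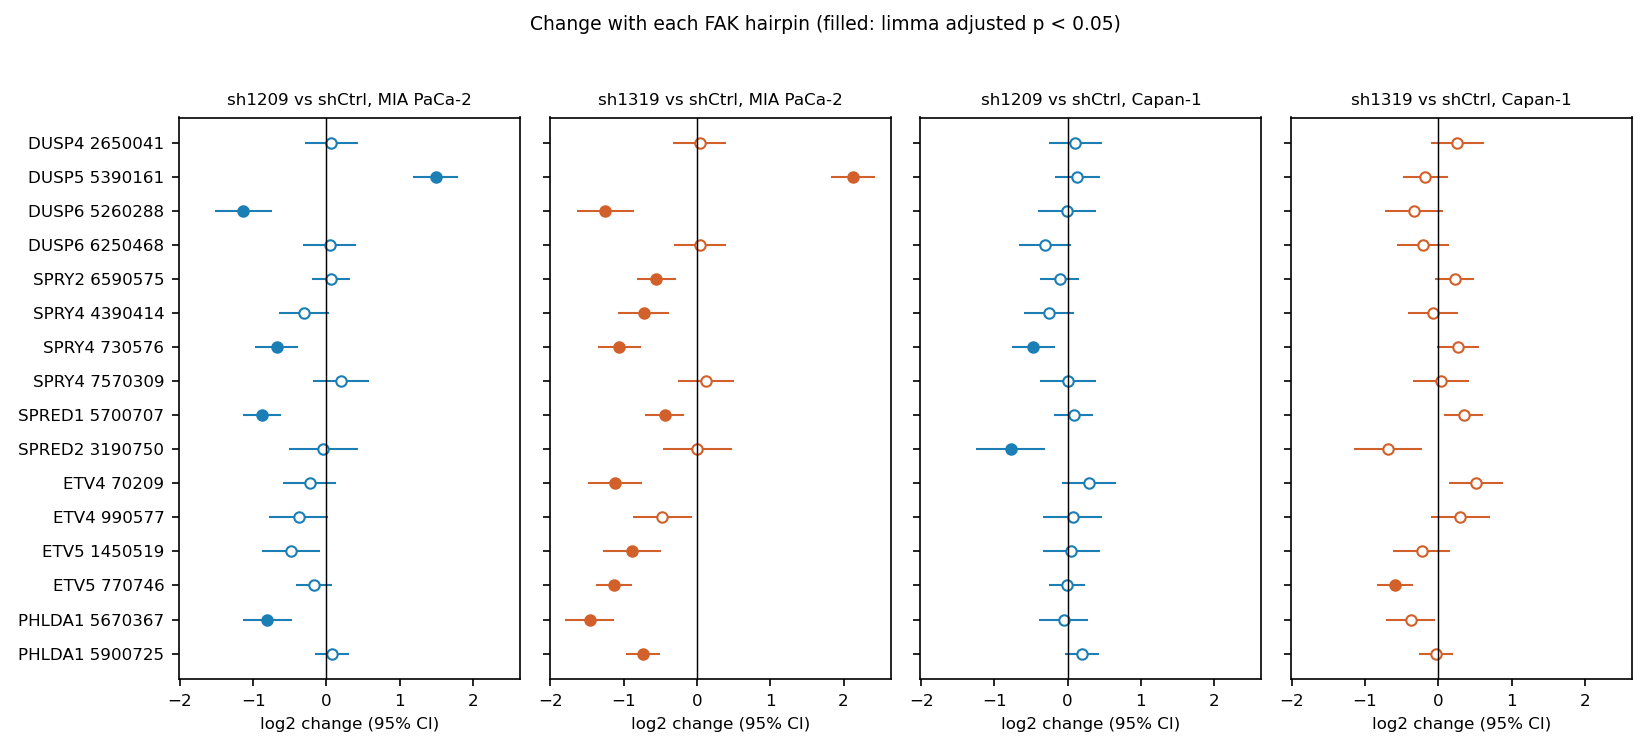
Log2 change against shCtrl (horizontal axis) of each of the 16 tested probes, in 4 panels by hairpin and cell line, with 95% confidence intervals. Filled points passed in limma. In the 2 MIA PaCa-2 panels DUSP5 stands far to the right and filled points of DUSP6, SPRED1, SPRY4 and PHLDA1 to the left. In the Capan-1 panels most intervals cross 0.

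Among the phosphatases, DUSP5 and DUSP6 moved in opposite directions in MIA PaCa-2. DUSP5, which acts on ERK in the nucleus, read 6.003 and 6.22 with shCtrl, 7.75 and 7.46 with sh1209 and 8.35 and 8.13 with sh1319. The 3 groups did not overlap, and the level was 2.81 times the control with sh1209 and 4.37 times with sh1319. The changes were 1.49 ± 0.14 (SE; limma, adjusted p = 2.07e-05) and 2.13 ± 0.14 (SE; adjusted p = 7.29e-07). DUSP6, which acts on ERK in the cytoplasm, read 6.43 and 6.13 with shCtrl, 4.98 and 5.31 with sh1209 and 4.94 and 5.11 with sh1319 on probe 5260288. Both FAK hairpins lay below the control and overlapped each other. They were near background, as the lowest detected signal of these hairpin arrays was 4.65 to 4.74. DUSP6 fell by 1.13 ± 0.18 (SE; limma, adjusted p = 0.00107) with sh1209 and by 1.25 ± 0.18 (SE; adjusted p = 0.000328) with sh1319. Without background correction these 4 changes were smaller, at 0.91 and 1.40 for DUSP5 and -0.48 and -0.52 for DUSP6, and still passed.

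In Capan-1 both genes were far brighter on these probes and neither passed. DUSP5 read 9.45 and 9.54 with shCtrl, 9.58 and 9.67 with sh1209 and 9.38 and 9.25 with sh1319. The change was 0.13 with a 95% interval of -0.17 to 0.44 for sh1209, and -0.18 with an interval of -0.48 to 0.13 for sh1319. DUSP6 read 8.72 and 8.80 with shCtrl, 8.59 and 8.91 with sh1209 and 8.23 and 8.63 with sh1319. Its sh1209 arrays lay on either side of the control, at a change of -0.01 (95% interval -0.40 to 0.38), and the sh1319 arrays lay below it, at -0.33 (95% interval -0.72 to 0.06). The intervals in Capan-1 therefore do not reach the sizes measured in MIA PaCa-2.

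DUSP4, a nuclear phosphatase of ERK and its relatives, was detected in Capan-1 alone. Probe 2650041 read 5.57 and 5.45 with shCtrl, 5.81 and 5.42 with sh1209 and 6.01 and 5.54 with sh1319 in Capan-1, and the groups overlapped. In MIA PaCa-2 the 6 arrays lay between 4.17 and 4.25 and none was detected. Its other probe, 2060102, was detected on 1 array of 12 and was not tested. The second probe of DUSP6, 6250468, was detected on 4 arrays, all of Capan-1, and passed with neither hairpin.

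The Sproutys were lower in MIA PaCa-2 with sh1319, and SPRY4 also with sh1209. SPRY4 probe 730576 read 8.69 and 8.68 with shCtrl, 8.003 and 8.01 with sh1209 and 7.56 and 7.68 with sh1319, 3 groups that did not overlap. It fell by 0.68 ± 0.13 (SE; limma, adjusted p = 0.00434) with sh1209 and by 1.06 ± 0.13 (SE; adjusted p = 0.000131) with sh1319. A dimmer SPRY4 probe, 4390414, read 6.07 and 6.11, 5.86 and 5.71, and 5.10 and 5.62 in the same order. It fell by 0.73 ± 0.16 (SE; limma, adjusted p = 0.00496) with sh1319, and its value with sh1209 was -0.30 ± 0.16 (SE; adjusted p = 0.224). The remaining SPRY4 probes were at background, with 7570309 detected on 2 arrays and 7160725 on 0.

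SPRY2 separated the FAK hairpins. It read 10.30 and 10.29 with shCtrl, 10.38 and 10.33 with sh1209 and 9.78 and 9.69 with sh1319 in MIA PaCa-2. Only the sh1319 arrays lay below the control, by 0.55 ± 0.12 (SE; limma, adjusted p = 0.00561). With sh1209 the change was 0.06, with a 95% interval of -0.20 to 0.33. Scaling the arrays to a common median in place of quantile normalization ended the sh1319 calls of SPRY2, at -0.47, and of SPRY4 probe 4390414, at -0.57.

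In Capan-1 the same Sprouty probes gave other patterns. SPRY4 probe 730576 read 6.31 and 5.94 with shCtrl, 5.60 and 5.71 with sh1209 and 6.33 and 6.45 with sh1319. It fell with sh1209 by 0.47 ± 0.13 (SE; limma, adjusted p = 0.0326), while the sh1319 arrays lay above the control by 0.27 ± 0.13 (SE; adjusted p = 0.24). SPRY4 was thus lower in 3 of the 4 hairpin comparisons, the only 1 of the 16 probes with that pattern, which 2.35% of all tested probes had. The sh1209 call in Capan-1 did not hold without shCtrl replicate 1 (-0.29), sh1209 replicate 1 (-0.42) or sh1209 replicate 2 (-0.52), nor with median scaling (-0.23). SPRY2 read 7.90 and 8.15, 7.92 and 7.91, and 8.16 and 8.34 in Capan-1 and passed with neither hairpin.

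SPRED1, of the SPREDs, passed in MIA PaCa-2. It read 8.44 and 8.21 with shCtrl, 7.50 and 7.39 with sh1209 and 7.89 and 7.88 with sh1319 in MIA PaCa-2. Both FAK hairpins lay below the control, sh1209 the lower of the 2. SPRED1 fell by 0.88 ± 0.12 (SE; limma, adjusted p = 0.000376) with sh1209 and by 0.44 ± 0.12 (SE; adjusted p = 0.0193) with sh1319. The sh1319 call did not hold without shCtrl replicate 1 (-0.32), sh1319 replicate 1 (-0.44) or sh1319 replicate 2 (-0.43), with median scaling (-0.32) or in a fit of MIA PaCa-2 alone (-0.44). In Capan-1 SPRED1 read 8.73 and 8.72, 8.83 and 8.79, and 9.15 and 8.99, with sh1319 above the control by 0.34 ± 0.12 (SE; adjusted p = 0.0845). That rise passed without background correction (0.30) or with a stricter filter (0.34).

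SPRED2 passed in Capan-1 with sh1209, although its difference in response between the lines did not pass (0.72). It read 7.02 and 6.86 with shCtrl, 6.27 and 6.06 with sh1209 and 6.48 and 6.03 with sh1319 in Capan-1, so that all 4 FAK hairpin arrays lay below the controls. The change was -0.78 ± 0.21 (SE; limma, adjusted p = 0.0275) with sh1209 and -0.69 ± 0.21 (SE; adjusted p = 0.0552) with sh1319. In MIA PaCa-2 the 6 arrays lay between 5.60 and 6.12 and the groups overlapped. The sh1209 call was lost when any 1 of the 4 arrays was left out, with values of -0.67 to -0.88, and with median scaling (-0.53) or no filter on dim probes.

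ETV4 and ETV5, the ETS factors of the set, were lower in MIA PaCa-2 with sh1319. ETV5 probe 770746 read 9.20 and 8.998 with shCtrl, 8.97 and 8.90 with sh1209 and 7.97 and 7.96 with sh1319. The sh1319 arrays stood apart from the other 4, and ETV5 fell by 1.13 ± 0.11 (SE; limma, adjusted p = 2.18e-05). The second ETV5 probe, 1450519, read 6.77 and 6.75, 6.01 and 6.54, and 5.78 and 5.97 in the same order and fell by 0.89 ± 0.18 (SE; adjusted p = 0.0035) with sh1319. With sh1209 the changes were -0.16 and -0.49, and neither passed (limma, adjusted p = 0.376 and 0.0889). Probe 1450519 did pass with sh1209 when background correction was omitted (-0.26). Its change was -0.75 with sh1209 replicate 2 left out.

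ETV5 also fell with sh1319 in Capan-1, the 1 member that passed there at the threshold. SPRED2 passed too with array weights (limma, adjusted p = 0.0391), a stricter filter (0.0364), a fit of 1 line (0.0245) or no background correction (0.00501). Probe 770746 read 8.02 and 8.001 with shCtrl, 7.96 and 8.03 with sh1209 and 7.44 and 7.39 with sh1319 there. The fall was 0.59 ± 0.11 (SE; limma, adjusted p = 0.00504), and it was 0.32 without passing under median scaling. Its dimmer probe read 5.37 and 5.74, 5.70 and 5.51, and 5.27 and 5.38, which overlapped, at -0.23 ± 0.18 (SE; adjusted p = 0.496).

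ETV4 probe 70209 read 6.23 and 5.87 with shCtrl, 5.76 and 5.88 with sh1209 and 4.88 and 4.98 with sh1319 in MIA PaCa-2. The sh1209 arrays overlapped the control and the sh1319 arrays lay below both, by 1.12 ± 0.17 (SE; limma, adjusted p = 0.000451) against shCtrl. With sh1319 this probe was near background. The other ETV4 probe, 990577, read 5.69 and 5.59, 5.16 and 5.36, and 5.15 and 5.20, at -0.47 ± 0.18 (SE; adjusted p = 0.0889) with sh1319. The 2 ETV4 probes therefore shared a sign but not the call, although probe 990577 passed in a fit of MIA PaCa-2 alone (-0.47). In Capan-1 the order of probe 70209 was turned, at 6.27 and 6.47 with shCtrl, 6.49 and 6.85 with sh1209 and 6.73 and 7.03 with sh1319. The change with sh1319 was 0.51 ± 0.17 (SE; adjusted p = 0.0686), and it passed with median scaling (0.75), a stricter filter (0.51) or no background correction (0.29).

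PHLDA1 probe 5670367 fell in steps in MIA PaCa-2. It read 7.65 and 7.55 with shCtrl, 6.71 and 6.88 with sh1209 and 6.22 and 6.04 with sh1319, with no overlap between the 3 groups. The falls were 0.81 ± 0.15 (SE; limma, adjusted p = 0.00329) and 1.47 ± 0.15 (SE; adjusted p = 2.98e-05), the latter leaving 36.2% of the control level. The second probe, 5900725, read 10.16 and 10.15, 10.26 and 10.21, and 9.39 and 9.43. It fell with sh1319 by 0.74 ± 0.11 (SE; adjusted p = 0.000322) and was 0.08 above the control with sh1209 (95% interval -0.15 to 0.31), so the probes disagreed for sh1209. In Capan-1 probe 5670367 read 6.67 and 6.49, 6.61 and 6.44, and 6.40 and 6.001, and neither PHLDA1 probe passed there.

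DUSP6 probe 5260288, PHLDA1 probe 5670367, SPRED1 and SPRY4 probe 730576 were thus the probes that fell with both hairpins in MIA PaCa-2, 4 of 16, where 4.14% of all tested probes did so. DUSP5 was the 1 that rose with both, as 4.35% of all did. The other tested probes of DUSP6, PHLDA1 and SPRY4 did not pass with sh1209 in MIA PaCa-2. For the genes of the 4 probes that fell, bases upstream of a start of transcription are printed below. The windows of DUSP6, PHLDA1 and SPRED1 adjoin the gene. That of SPRY4 lies inside the span of the gene (chr5:142310430-142325021). ETS factors such as ETV4 and ETV5 bind DNA around the letters GGAA. Whether they act on these genes was not tested. The sequences run 5′ to 3′ toward the start of transcription on the gene's strand. They come from RefSeq (GRCh38.p14), where 6 of the 10 genes had a window, 9 windows in all. Capitals mark GGAA or its reverse complement, TTCC.
DUSP6 (chr12:89352502-89352751, minus strand): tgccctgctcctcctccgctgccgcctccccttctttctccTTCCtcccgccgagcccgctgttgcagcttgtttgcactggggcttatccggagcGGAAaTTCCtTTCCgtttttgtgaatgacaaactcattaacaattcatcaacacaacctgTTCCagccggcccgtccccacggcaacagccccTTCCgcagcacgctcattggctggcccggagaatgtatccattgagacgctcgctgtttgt
PHLDA1 (chr12:76031777-76032026, minus strand): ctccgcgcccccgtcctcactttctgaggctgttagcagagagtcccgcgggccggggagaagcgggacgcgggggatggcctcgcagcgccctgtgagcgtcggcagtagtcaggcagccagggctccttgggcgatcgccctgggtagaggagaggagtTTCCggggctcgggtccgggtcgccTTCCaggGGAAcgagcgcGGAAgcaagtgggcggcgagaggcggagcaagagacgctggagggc
SPRED1 (chr15:38252586-38252835, plus strand): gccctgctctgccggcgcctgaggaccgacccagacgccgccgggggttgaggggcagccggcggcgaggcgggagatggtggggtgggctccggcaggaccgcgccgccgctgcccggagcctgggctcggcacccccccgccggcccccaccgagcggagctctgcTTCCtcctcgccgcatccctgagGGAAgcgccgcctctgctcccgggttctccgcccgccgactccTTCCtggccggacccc
SPRY4 (chr5:142324248-142324497, minus strand): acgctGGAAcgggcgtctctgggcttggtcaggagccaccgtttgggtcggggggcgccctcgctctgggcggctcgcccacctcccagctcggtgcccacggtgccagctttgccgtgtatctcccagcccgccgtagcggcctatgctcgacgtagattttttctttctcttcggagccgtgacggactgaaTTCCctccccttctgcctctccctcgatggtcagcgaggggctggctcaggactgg

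These 250 bases held GGAA on either strand 6 times at DUSP6, 4 times at PHLDA1, 3 times at SPRED1 and 2 times at SPRY4. Of 35116 RefSeq windows of the same length, 92.7% held it at least once and the median was 3, so a match at this length is common. The longer ETS motif CCGGAAG, which contains GGAA, and the AP-1 motif TGANTCA were searched on both strands. Neither was found in the 250 upstream bases of any of the 9 windows of members, and they occurred in 8.52% and 6.57% of all windows. A match describes the letters and is no measure of binding, and its absence says only that the letters are not in this window.

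The fall of these genes was measured directly against the Capan-1 response in 1 contrast, the mean change over both hairpins in MIA PaCa-2 minus that in Capan-1. Of the 16 probes, 6 passed, 5 of them lower in MIA PaCa-2 and DUSP5 higher, where 14.4% of all tested probes passed (7.11% lower, 7.24% higher). DUSP5 changed by 1.81 ± 0.12 (SE) in MIA PaCa-2 but by -0.02 ± 0.12 (SE) in Capan-1, a difference of 1.83 ± 0.17 (SE; limma, adjusted p = 2.84e-05). DUSP6 changed by -1.19 and -0.17, a difference of -1.02 ± 0.22 (SE; adjusted p = 0.00947). SPRED1 and ETV4 probe 70209 had opposite signs in the 2 lines. SPRED1 changed by -0.66 and 0.21, a difference of -0.87 ± 0.15 (SE; adjusted p = 0.00227), and ETV4 by -0.68 and 0.40, a difference of -1.08 ± 0.21 (SE; adjusted p = 0.00481). PHLDA1 probe 5670367 differed by -0.92 ± 0.19 (SE; adjusted p = 0.00674) and SPRY4 probe 730576 by -0.77 ± 0.16 (SE; adjusted p = 0.009). For both ETV5 probes, SPRY2 and SPRED2 the difference did not pass, at -0.35, -0.60, -0.30 and 0.72. The 6 differences that passed did so in all 18 limma settings tried. The change of PTK2 differed between the lines too, by -1.17 ± 0.14 (SE; adjusted p = 0.000213) on probe 450253, and its part in these results was not tested.

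**Figure D3:**
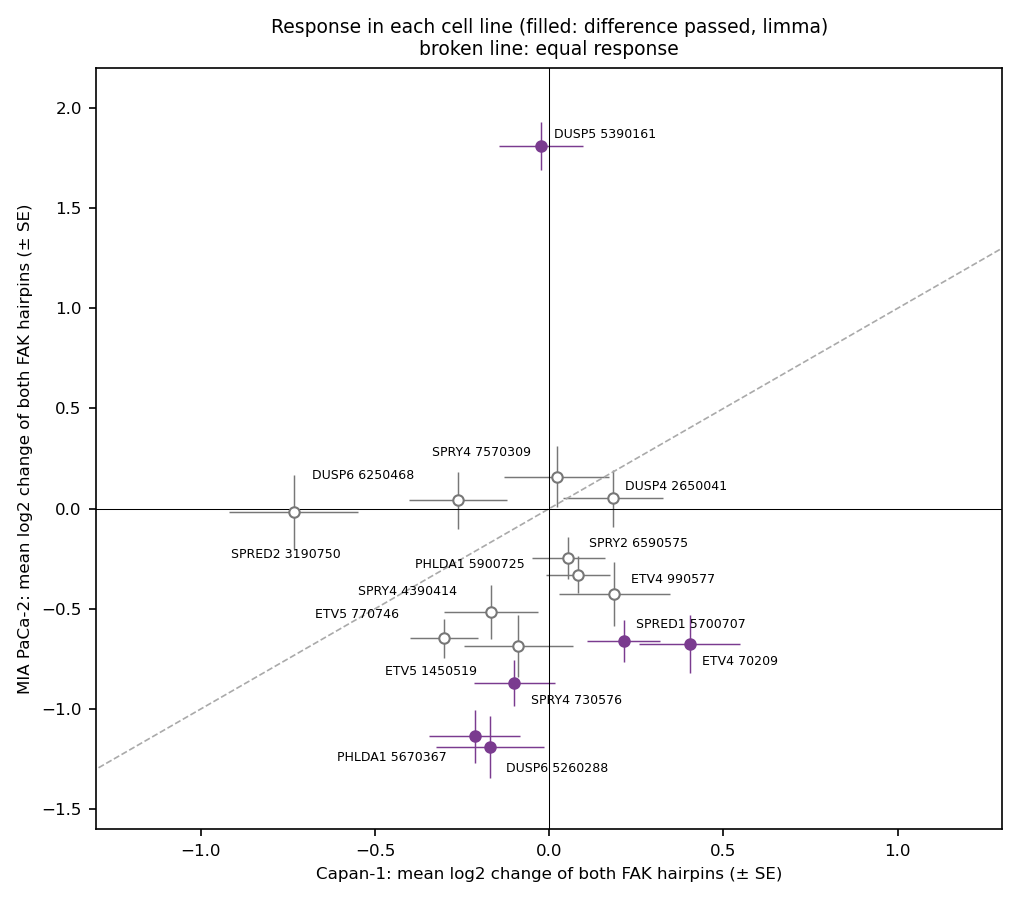
Mean log2 change over both FAK hairpins in Capan-1 (horizontal axis) and MIA PaCa-2 (vertical axis) for the 16 tested probes, with SE bars. The broken line marks equal change, and filled points had a difference that passed in limma. DUSP5 lies at 1.81 above a Capan-1 change near 0, and the filled points of DUSP6, PHLDA1, SPRY4, SPRED1 and ETV4 lie below the broken line.

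The hairpins also differed from each other, for the members mostly in MIA PaCa-2. With sh1319 against sh1209 there, 7 of the 16 probes passed, 2 higher and 5 lower, where 22.6% of all probes passed (11.2% higher, 11.5% lower). The arrays of the 2 hairpins did not overlap for 11 probes there (56.8% of all probes) and for 9 in Capan-1 (51.9%). ETV5 probe 770746 was lower with sh1319 by 0.97 ± 0.11 (SE; limma, adjusted p = 7.86e-05), ETV4 probe 70209 by 0.89, both PHLDA1 probes by 0.66 and 0.82, and SPRY2 by 0.62. DUSP5 was higher with sh1319 by 0.64 and SPRED1 by 0.44. Of these, DUSP5 (0.49) and PHLDA1 probe 5670367 (-0.57) did not pass without sh1209 replicate 2, nor DUSP5 (0.53) without sh1319 replicate 1, nor PHLDA1 (-0.56) without sh1319 replicate 2. SPRED1 did not pass without sh1209 replicate 2 (0.38), sh1319 replicate 1 (0.43) or sh1319 replicate 2 (0.44), and the count ran from 4 to 8 as each of the 4 arrays was left out. Median scaling ended the calls of SPRY2 (-0.48) and PHLDA1 probe 5670367 (-0.58). DUSP6 did not separate the hairpins in MIA PaCa-2 (-0.12, 95% interval -0.51 to 0.27). Its probe was near background with both of them, where a difference could be hidden. In Capan-1, 2 probes passed, where 11.3% of all did (5.47% higher, 5.81% lower). SPRY4 probe 730576 was higher with sh1319 than with sh1209 by 0.74 ± 0.13 (SE; limma, adjusted p = 0.00428), and ETV5 probe 770746 was lower by 0.58 ± 0.11 (SE; adjusted p = 0.0067), a call that median scaling ended (-0.53).

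With the control hairpin the lines held different members of the set at high level. With shCtrl, 13 of 16 probes differed between MIA PaCa-2 and Capan-1, 6 higher and 7 lower in MIA PaCa-2, where 42.1% of all tested probes passed (22.5% higher, 19.6% lower), and the arrays of the lines did not overlap for 15 (67.6% of all). The phosphatases were lower in MIA PaCa-2. DUSP5 was lower by 3.38 ± 0.14 (SE; limma, adjusted p = 2.06e-09), a 10.4-fold difference, and DUSP6 probe 5260288 by 2.48 ± 0.18 (SE; adjusted p = 3.41e-07). DUSP4 was at least 1.74-fold lower and DUSP6 probe 6250468 at least 1.20-fold lower, as neither was detected in MIA PaCa-2 and the lowest detected signal of each array stands for their level. The Sproutys were higher in MIA PaCa-2, SPRY4 by 2.56 ± 0.13 (SE; adjusted p = 1.87e-08) and 1.36 ± 0.16 (SE; adjusted p = 2.01e-05) on probes 730576 and 4390414 and SPRY2 by 2.27 ± 0.12 (SE; adjusted p = 2.27e-08). ETV5 was higher by 1.09 and 1.21 on its probes, and PHLDA1 probe 5670367 by 1.02. SPRED2 was lower by 1.08, ETV4 probe 990577 by 0.65 and SPRED1 by 0.40. The SPRED1 call did not hold without shCtrl replicate 2 of MIA PaCa-2 (-0.28) or shCtrl replicate 1 (-0.40) or 2 (-0.41) of Capan-1, and that of ETV4 not without shCtrl replicate 2 of MIA PaCa-2 (-0.61) or shCtrl replicate 1 of Capan-1 (-0.39). There was 1 cell line of each kind, so the line and any other feature of these cultures cannot be told apart.

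Across the 12 arrays, with values centred within each cell line, DUSP5 had a negative correlation with 11 of the 15 other member probes. The remaining 4, DUSP4, DUSP6 probe 6250468, SPRED2 and SPRY4 probe 7570309, lay between 0.04 and 0.23. The most negative Pearson values of DUSP5 were -0.87 with DUSP6 probe 5260288, -0.87 with PHLDA1 probe 5670367 and -0.87 with SPRY4 probe 730576. DUSP6 and PHLDA1 probe 5670367 correlated at 0.82, and ETV5 probe 770746 and PHLDA1 probe 5900725 at 0.89. SPRED2 stood apart, and the value farthest from 0 that it reached with another member probe was -0.45, with ETV4 probe 70209. These arrays share their hairpins and controls, so the values describe the hairpin pattern over 12 arrays and are no test. The probes of other genes with the most similar pattern were those of UBE2Z (0.956), KIAA0020 (0.956) and TRIM44 (0.952) for DUSP6, ATPBD4 (0.963), GGCT (0.949) and UPLP (0.948) for SPRY2, and ZMPSTE24 (0.991), RNGTT (0.988) and PSPH (0.984) for ETV5, among 13375 or 13374 probes detected in at least 10 arrays.

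Other genes of the pathway were read from 4 lists, the first of which covers the chain itself. Of 26 tested probes for 20 genes from receptor adaptors to RAF, MEK, ERK and the RSK kinases, 2 rose and 0 fell with sh1209 and 0 rose and 7 fell with sh1319 in MIA PaCa-2, and 3 rose and 2 fell with sh1209 and 1 rose and 4 fell with sh1319 in Capan-1. Of all tested probes, 18%, 24.3%, 16.8% and 13.7% passed in the same order. The median changes were 0.03, -0.10, 0.07 and 0.02. GRB2, the adaptor that links receptors and FAK to the RAS activator SOS, fell on probe 7380725 by 0.61 with sh1319 in MIA PaCa-2 and by 0.62 and 1.16 with sh1209 and sh1319 in Capan-1. Its probe 940039 fell by 1.28 with sh1319 in MIA PaCa-2, to 5.14 and 4.79, near background. In Capan-1 that probe read 5.58 and 5.33 with shCtrl, 5.58 and 5.92 with sh1209 and 5.11 and 5.07 with sh1319. It passed with neither hairpin there, so the GRB2 probes did not share the Capan-1 calls. RPS6KA2, an RSK kinase activated by ERK, rose by 2.00 with sh1209 and 0.73 with sh1319 in Capan-1. NRAS fell by 0.70 with sh1209 in Capan-1, and RPS6KA3, another RSK kinase, rose by 0.82 with sh1209 in MIA PaCa-2.

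DUSP1 and SPRY1 stood out among the relatives of the 10 genes, both with changes above 2 in size with a hairpin. Among 13 tested probes of 10 of the 14 genes, 1 rose and 2 fell with sh1209 and 1 rose and 3 fell with sh1319 in MIA PaCa-2, and 1 rose and 1 fell with sh1209 and 2 rose and 2 fell with sh1319 in Capan-1. The shares over all tested probes were 18%, 24.3%, 16.8% and 13.7%. The medians were 0.05, 0.06, 0.01 and -0.08. DUSP1, a stress-induced phosphatase that prefers p38 and JNK, rose in all 4 comparisons. It read 6.99 and 7.08 with shCtrl, 8.19 and 8.22 with sh1209 and 9.20 and 9.39 with sh1319 in MIA PaCa-2. In Capan-1 it read 9.05 and 9.22, 11.51 and 11.54, and 10.02 and 9.99, and the 4 rises were 1.17, 2.26, 2.39 and 0.87. SPRY1, the Sprouty closest in role to SPRY2 and SPRY4, fell in MIA PaCa-2 by 0.64 with sh1209 and by 2.30 with sh1319, from 8.59 and 8.54 to 6.35 and 6.18 in the latter. PHLDA2, a relative of PHLDA1 that is imprinted in placenta, fell in Capan-1 by 0.99 and 1.12, and DUSP10, a phosphatase of p38 and JNK, rose there by 0.89 with sh1319.

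Further genes known to follow ERK moved in both directions. Of 14 tested probes for 11 genes, 2 rose and 5 fell with sh1209 and 4 rose and 6 fell with sh1319 in MIA PaCa-2, with medians of -0.23 and -0.28. In Capan-1, 8 rose and 5 fell with sh1209 and 1 rose and 3 fell with sh1319, with medians of 0.48 and -0.05. Over all tested probes 18%, 24.3%, 16.8% and 13.7% passed, in the same order. FOSL1, an AP-1 subunit whose protein and transcript depend on ERK, fell in all 4, by 1.06, 2.51, 0.52 and 0.86. In MIA PaCa-2 it read 8.10 and 8.08 with shCtrl, 6.96 and 7.10 with sh1209 and 5.83 and 5.34 with sh1319. IER3, an immediate early gene, changed by -2.29 and -1.65 in MIA PaCa-2 and by -1.31 with sh1319 in Capan-1, all of which passed, and rose there by 1.06 with sh1209. EPHA4, an ephrin receptor, rose in MIA PaCa-2 by 2.16 and 2.12 and fell in Capan-1 by 0.52 and 0.68. EMP1, a membrane protein, fell in 3 of 4, and PLAUR, the urokinase receptor, rose in 3 of 4 on probe 360475 and by 1.19 with sh1209 in Capan-1 on probe 730528. MYC fell by 1.01 with sh1209 in Capan-1. With sh1319 in MIA PaCa-2 it passed as higher, at 10.32 and 10.30 against 9.998 and 9.88 with shCtrl. CCND1, cyclin D1, rose by 0.64 with sh1319 in Capan-1. It passed as higher there with sh1209 too, at 11.03 and 11.14 against 10.69 and 10.64 with shCtrl.

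The last list holds regulators of the ETS family and its partners. Among 11 tested probes of 9 genes, 2 rose and 0 fell with sh1209 and 2 rose and 1 fell with sh1319 in MIA PaCa-2, and 1 rose and 0 fell with each hairpin in Capan-1, with medians of 0.20, 0.19, 0.15 and 0.25. These counts were near or below the 18%, 24.3%, 16.8% and 13.7% of all tested probes that passed. ERF, an ETS repressor that ERK removes from the nucleus, rose by 0.87 with sh1209 in MIA PaCa-2. It passed there with sh1319 too, at 6.32 and 5.90 against 5.29 and 5.45 with shCtrl. ETS1 rose in MIA PaCa-2 by 1.22 with sh1319. With sh1209 it read 8.07 and 7.96 there, against 7.23 and 7.08 with shCtrl. ETV6, an ETS repressor, fell by 0.64 with sh1319 in MIA PaCa-2 and rose by 1.12 and 0.80 in Capan-1.

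Several of these list calls were lost when 1 array was left out. In Capan-1 with sh1209, the calls of FOSL1 (-0.59 to -0.45), EMP1 (-0.56 to -0.54) and GRB2 probe 7380725 (-0.74 to -0.50) were lost whichever of the 4 arrays was left out. The CCND1 call (0.36 to 0.47) was lost there in the same way. EPHA4 was lost there without shCtrl replicate 1 (-0.64) or 2 (-0.42) or sh1209 replicate 2 (-0.35), and NRAS without shCtrl replicate 1 (-0.61) or sh1209 replicate 1 (-0.64). With sh1319 in Capan-1, EPHA4 was lost without shCtrl replicate 2 (-0.57) or sh1319 replicate 2 (-0.55), and ETV6 without shCtrl replicate 1 (0.67) or sh1319 replicate 1 (0.78). In MIA PaCa-2 with sh1209, ERF was lost without shCtrl replicate 1 (0.79) or sh1209 replicate 1 (0.83). RPS6KA3 was lost there without sh1209 replicate 1 (0.63), and PLAUR probe 360475 without shCtrl replicate 2 (0.39) or sh1209 replicate 1 (0.49). With sh1319 in MIA PaCa-2, GRB2 probe 7380725 was lost without shCtrl replicate 1 (-0.62) or 2 (-0.60) or sh1319 replicate 2 (-0.52), and ETV6 without shCtrl replicate 2 (-0.37), sh1319 replicate 1 (-0.66) or 2 (-0.62). EMP1 was lost there without sh1319 replicate 1 (-0.58) and PLAUR probe 360475 without shCtrl replicate 2 (0.44). The ERF call was lost there without shCtrl replicate 1 (0.66) or 2 (0.82) or sh1319 replicate 1 (0.53). The MYC call was lost there without shCtrl replicate 2 (0.31) or sh1319 replicate 1 (0.36) or 2 (0.39). Median scaling also ended the calls of PLAUR probe 360475 with sh1209 and of EMP1, ETV6 and GRB2 probe 7380725 with sh1319 in MIA PaCa-2. For Capan-1 it ended those of FOSL1, EMP1, EPHA4 and GRB2 probe 7380725 with sh1209 and of EPHA4 with sh1319.

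**Figure D4:**
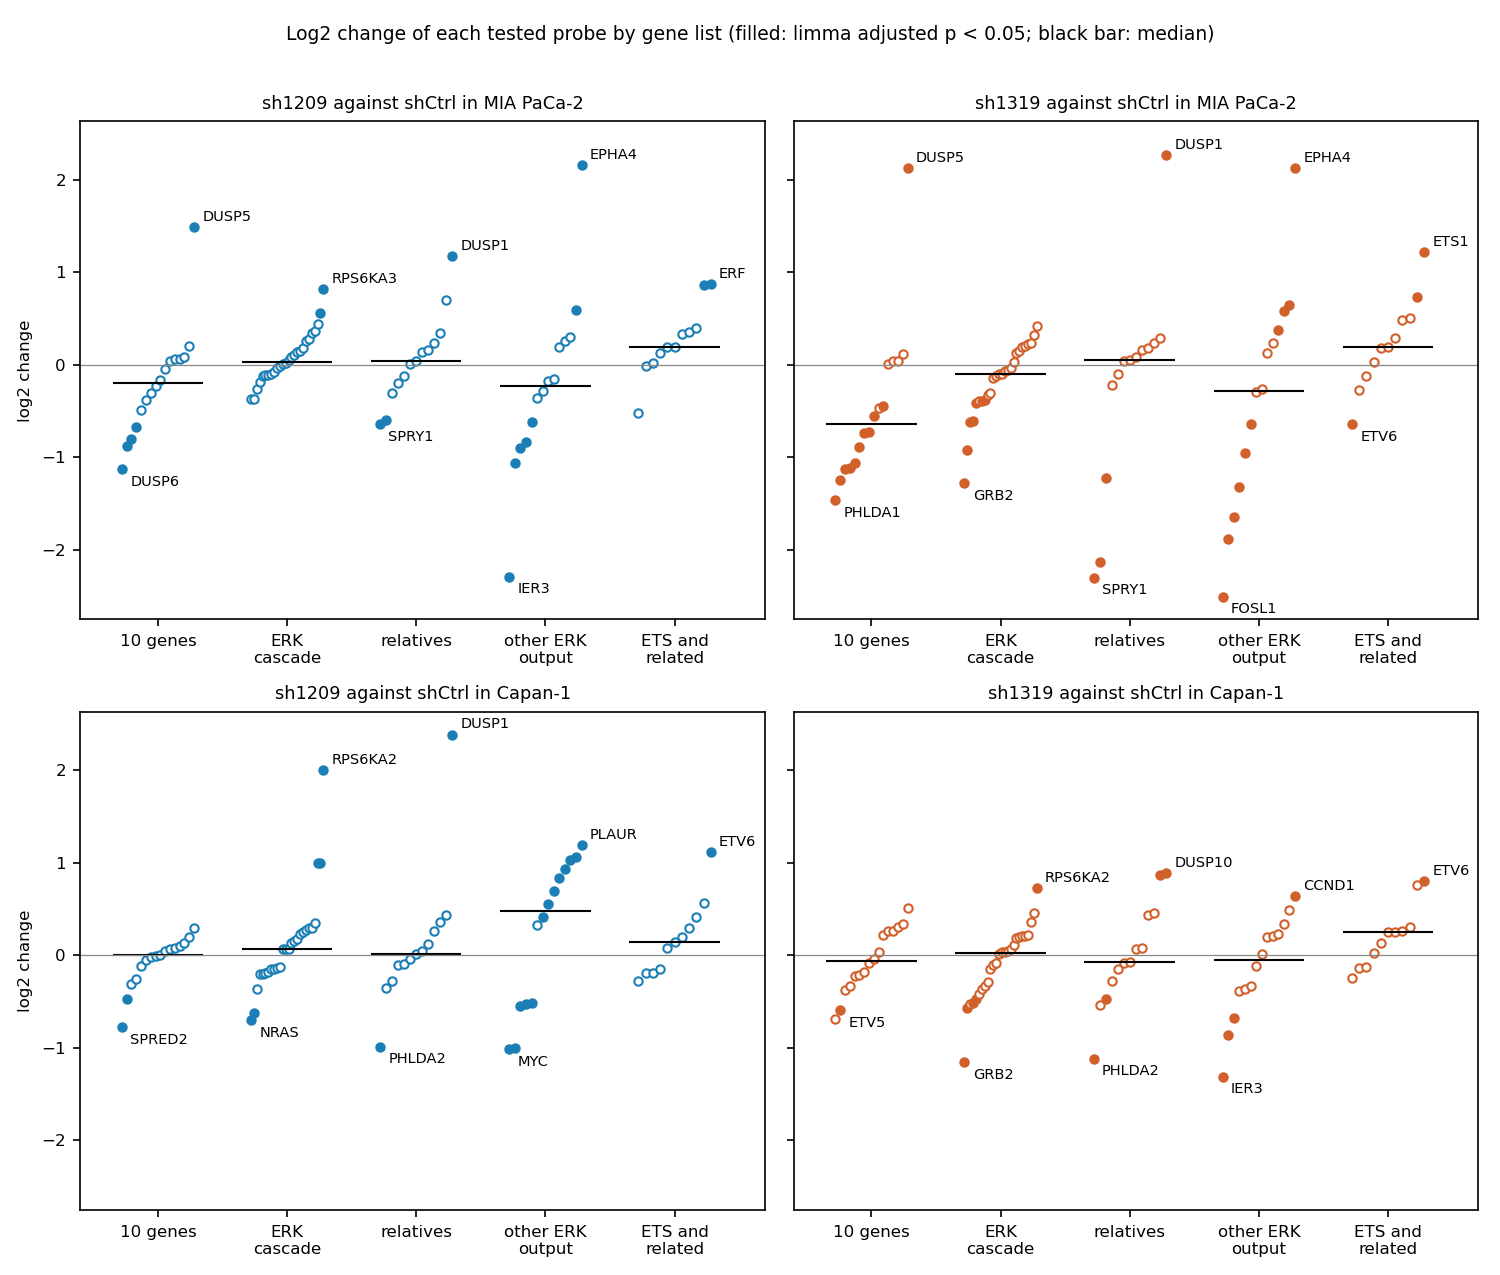
Log2 change (vertical axis) of each tested probe of the 10 genes and of the 4 lists, by hairpin and cell line, with the median of each list as a black bar. Filled points passed in limma. The 10 genes have the lowest median of the 5 groups in the MIA PaCa-2 panel for sh1319, at -0.64, and DUSP1 stands at the top of its list in 3 of the 4 panels.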

How the data were processed

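RNA of 12 samples from 2 human PDAC cell lines, in 6 groups of 2 arrays, was hybridised to Illumina HumanHT-12 v4 arrays on 1 chip. The authors deposited, for each array, a non-normalized probe intensity and a detection p-value per probe from GenomeStudio 2011.1 (submitters' processing notes), as a single table with 47320 rows and 28 empty columns. The table keeps 92 spike-in control rows, which were left out after background correction. Gene names are those of the table. The lowest deposited intensity was 66.6. Median intensity per array was 87.7 to 97, 16259 to 19814 probes per array were detected, and the 2 arrays of a group correlated at 0.991 to 0.994. The number of arrays limits the precision.

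Intensities were background-corrected by normexp, whose parameters came from the detection p-values, with an offset of 16, log2-transformed and quantile-normalized with limma 3.58.1 in R 4.3.3. Such a correction compresses the changes of dim probes, and quantile normalization assumes that arrays share 1 distribution of values. Probes with a detection p below 0.05 on at least 2 arrays were kept (24207 of 47228). A linear model with 6 group means (6 residual degrees of freedom) and moderated variances was fitted for 8 comparisons. P-values were adjusted by Benjamini-Hochberg within each comparison, with a threshold of 0.05, and intervals are 95%. Fits were tested on simulated data.

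The 10 genes, the 4 lists and the tests were chosen with earlier results of these data known. Some genes of the pathway are not reported here and were left out of the lists. From the lists, named probes were those that passed with the same sign in at least 3 of the 4 hairpin comparisons and, in each comparison, the largest rise and the largest fall that passed. For DUSP6, SPRY2 and ETV5 the 3 most similar probes were named. Alternatives were median scaling, omission of the background correction or of the filter, a stricter filter (detection p below 0.01 on at least 6 arrays), array weights, a replicate block, a fit of 1 cell line, each array left out, and the methods' t-test. Promoter windows came from RefSeq (GRCh38.p14), and the letters GGAA were chosen after the data had been seen.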

Additional observations from a re-analysis of the deposited data

Results flagged for a closer look

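The response to the FAK hairpins, taken as the mean change over both hairpins, differed between the cell lines for 6 probes of the 10 genes in the limma test of the difference itself. Responses below are given first for MIA PaCa-2 and second for Capan-1. The difference, MIA PaCa-2 minus Capan-1, was 1.83 for DUSP5, -1.02 for DUSP6, -1.08 for ETV4 probe 70209, -0.92 for PHLDA1 probe 5670367, -0.87 for SPRED1 and -0.77 for SPRY4 probe 730576. PTK2 itself differed by -1.17, with -2.36 in MIA PaCa-2 against -1.19 for Capan-1.

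Among the genes named from the lists, EPHA4 had the greatest difference, 2.75, with a response of 2.14 in MIA PaCa-2 against -0.60 for Capan-1. ETV6 differed by -1.54 (responses -0.58 and 0.96), MYC by 1.01 (0.34 and -0.67) and CCND1 by -0.73 (-0.21 and 0.53), with opposite signs in the lines. SPRY1 differed by -1.53 (-1.47 and 0.06), RPS6KA2 by -1.46 (-0.09 and 1.37), ETS1 by 1.05 (1.04 and -0.01) and PLAUR probe 730528 by -0.79 (-0.02 and 0.76), each with 1 response near 0. FOSL1 differed by -1.10 (-1.79 and -0.69), IER3 by -1.85 (-1.97 and -0.12), EMP1 by -0.60 (-0.77 and -0.17) and PHLDA2 by 0.79 (-0.26 and -1.05), with 1 sign in both lines. For IER3 the Capan-1 value averages a rise with sh1209 and a fall with sh1319. The EMP1 difference did not pass with 10 of the 12 arrays left out in turn (-0.53 to -0.67), and that of PLAUR with 8 of the 12 (-0.54 to -0.83). Median scaling ended the EMP1 (-0.82) and PHLDA2 (0.60) calls.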

How the results depend on the processing

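No called value changed sign under any alternative. Median scaling gave, in MIA PaCa-2, 2243 passing probes of all tested with sh1209 and 3846 with sh1319, 2459 with sh1209 in Capan-1, 1834 for the difference between lines, and 3477 and 1217 for sh1319 against sh1209 in MIA PaCa-2 and Capan-1. It moved the share of passing probes that were higher from 50.3% to 66.6% with sh1319 in MIA PaCa-2, from 48.4% to 81.7% with sh1209 and from 50.6% to 85.3% with sh1319 in Capan-1, from 50.4% to 31.7% for the difference between lines and from 49.4% to 65.3% for sh1319 against sh1209 in MIA PaCa-2. The median of all probes shifted to 0.107 with sh1319 in Capan-1. The cause was not tested.

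Of the 10 genes, 0 probes passed with sh1209 in Capan-1 under median scaling in limma, against 2 with quantile normalization. For sh1319 against sh1209 there, 1 passed under median scaling (SPRY4). With sh1319 in Capan-1 the 1 probe that passed was ETV4 probe 70209 (0.75) in place of ETV5. In that comparison 4 passed without background correction or with the stricter filter, and 2 with array weights or a fit of 1 cell line. With sh1209 in Capan-1, 1 passed without a filter and 1 in the fit of 1 cell line. Without background correction 11 passed for the difference between lines and 6 for sh1319 against sh1209 in Capan-1. The methods' t-test after adjustment called 1, 4, 0 and 0 of all probes for sh1209 and sh1319 in MIA PaCa-2, then the same in Capan-1 (4613, 5646, 4935 and 4393 unadjusted), 3905 between lines with shCtrl, and 1 and 2 for sh1319 against sh1209. It called 0 probes of the 10 genes in these 4 comparisons (6, 10, 2 and 1 unadjusted) and between the hairpins (8 and 3 unadjusted), and 7 between the lines.

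With 1 array left out, passing probes of all ran from 2209 to 2449 (sh1209) and 1748 to 1956 (sh1319) in Capan-1, 1260 to 1512 (sh1319 against sh1209 in Capan-1) and 2225 to 3143 (difference between lines, lowest without shCtrl replicate 2 of Capan-1). Those of the 10 genes ran from 0 to 1 with sh1209 in Capan-1 and from 4 to 8 for sh1319 against sh1209 in MIA PaCa-2. The lone array is then assumed to vary like the other groups. The arrays share replicate numbers, but deviations of same-numbered arrays correlated at -0.05 to 0.16 with 2 pairs per comparison, so pairing was not shown. With the replicate block the counts for the 10 genes were 5, 11, 2 and 1 in the 4 hairpin comparisons and 6 for the difference between lines, and no call of theirs changed. EPHA4 with sh1209 in Capan-1 and the difference of PLAUR probe 730528 between lines were lost under it. Whole promoter windows held the ETS and AP-1 motifs in 10.3% and 7.71%, and among members AP-1 matched 2 times in 1 SPRED2 window.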
